A study of Mus musculus with 2 samples.

Results

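The genes described are 10 that act on growth control in muscle through the kinase mTOR or through FoxO transcription factors. They are Ddit4, Ddit4l, Sesn1, Sesn2, Sesn3, Deptor, Mtor, Foxo1, Foxo3 and Foxo4. Rows were taken by symbol, with gene identifiers joined between the gene tables and the transcript tables, and all 10 were found among the 55536 genes of the gene tables. The set was chosen by function with measured values of both libraries in view, among them the difference of Ddit4 between the libraries. Levels and differences are therefore a description, and no test was applied to them.

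The RNA was total RNA of gastrocnemius, a calf muscle that mixes fast and slow fibres. The mice were females, F1 of a C57BL/6J by CAST/EiJ cross (B6CASTF1/J), aged 18 to 20 months. The series has 1 group of 2 libraries, biological replicates 1 and 2, each from 300 ng of RNA with ERCC spike-ins and ribosomal RNA reduction. No treatment, genotype other than the cross, or younger age was part of the group. The 2 tissue samples carry different identifiers but share a donor identifier that names the strain, so the spread between them may be biological or technical. Expected counts of genes summed to 38654555 in replicate 1 and 43722892 in replicate 2.

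mTOR is a kinase that, in its complex mTORC1, drives protein synthesis and restrains autophagy. The small proteins DDIT4 (also called REDD1) and DDIT4L (REDD2) restrain mTORC1 through the TSC complex. The sestrins do so through the GATOR complexes of the amino acid pathway, and DEPTOR binds mTOR itself. FoxO factors are held in the cytoplasm when Akt phosphorylates them, and in the nucleus they activate genes of protein breakdown, autophagy and fat use, so both sets of genes are studied in muscle wasting, fasting and disuse. Transcription of Ddit4 is known to respond to hypoxia, glucocorticoids, fasting, exercise and cell stress.

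The start regions of the genes whose results are described most fully are shown first. The deposited files hold no promoter measurement, and the sequences are shown as the RefSeq start regions of these genes. RefSeq promoter windows on GRCm38.p6 cover 250 bases before and 50 bases from the annotated start on, on the gene's strand. There were 9 windows for 8 of the 10 genes, with no entry for Deptor and Foxo4. Capitals mark matches to the letters searched on both strands, and positions count from the start base as 0.

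The window of Ddit4 (chr10:59951721-59952020, minus strand), the gene farthest apart between the libraries among these 10, holds ACGTG, the core letters of the hypoxia response element, at position -187. That position counts from the RefSeq start, and the GENCODE start of Ddit4, at 59951834, lies upstream of it within the window. The window of Ddit4l, the relative of Ddit4 (chr3:137623422-137623721, plus strand), holds TATAAA, the TATA box letters, at position 35, after the start. None of the letters searched is in the window of Foxo1 (chr3:52268087-52268386, plus strand), the other gene with a difference of over 2-fold.
Ddit4: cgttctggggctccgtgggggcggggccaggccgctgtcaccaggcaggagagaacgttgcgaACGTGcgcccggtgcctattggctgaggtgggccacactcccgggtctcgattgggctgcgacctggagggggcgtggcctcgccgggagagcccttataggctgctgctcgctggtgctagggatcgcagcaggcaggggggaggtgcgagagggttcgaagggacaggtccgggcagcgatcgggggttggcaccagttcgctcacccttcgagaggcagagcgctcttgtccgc
Ddit4l: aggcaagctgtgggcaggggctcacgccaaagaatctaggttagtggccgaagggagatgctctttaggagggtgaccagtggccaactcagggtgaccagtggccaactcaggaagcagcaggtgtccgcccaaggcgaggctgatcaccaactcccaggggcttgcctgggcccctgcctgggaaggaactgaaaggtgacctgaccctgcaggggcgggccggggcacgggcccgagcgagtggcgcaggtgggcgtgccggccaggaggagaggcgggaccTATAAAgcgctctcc
Foxo1: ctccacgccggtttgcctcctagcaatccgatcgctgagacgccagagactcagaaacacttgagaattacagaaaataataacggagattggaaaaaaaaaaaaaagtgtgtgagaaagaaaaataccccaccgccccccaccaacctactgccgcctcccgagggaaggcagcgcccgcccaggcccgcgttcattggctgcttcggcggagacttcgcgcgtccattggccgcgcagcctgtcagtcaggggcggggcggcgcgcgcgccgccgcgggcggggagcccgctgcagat

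Sesn1 has a pair of windows, shown because its transcripts start far apart. The GENCODE start of Sesn1-202, at 41809935, lies before the upstream window and not in it. The upstream window (chr10:41810324-41810623, plus strand) holds the FoxO letters GTAAACA on the opposite strand, read here as TGTTTAC, at position 22. The downstream window (chr10:41887189-41887488, plus strand) belongs to the start of Sesn1-201, the transcript with the larger share.
Sesn1 upstream: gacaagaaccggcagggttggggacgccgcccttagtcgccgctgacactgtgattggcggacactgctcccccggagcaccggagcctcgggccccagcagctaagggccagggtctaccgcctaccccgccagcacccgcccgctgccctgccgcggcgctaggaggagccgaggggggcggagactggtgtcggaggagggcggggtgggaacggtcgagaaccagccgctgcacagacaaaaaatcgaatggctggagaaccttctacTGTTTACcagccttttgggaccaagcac
Sesn1 downstream: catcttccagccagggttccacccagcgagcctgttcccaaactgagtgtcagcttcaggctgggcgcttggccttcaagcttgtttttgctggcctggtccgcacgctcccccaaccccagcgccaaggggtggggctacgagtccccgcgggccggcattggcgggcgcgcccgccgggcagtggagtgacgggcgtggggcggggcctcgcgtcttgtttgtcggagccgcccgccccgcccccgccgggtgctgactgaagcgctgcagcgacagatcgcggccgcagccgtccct

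Such short matches were common in the table of 32817 windows. ACGTG was in 19.6% of them, TATAAA in 13.6% and GTAAACA in 3.65%, each against 1 of the 9 windows of these genes. The ATF4 composite letters TGATGNAA (3.97% of all windows) and the core letters of the glucocorticoid receptor site, AGAACA, (19.0%) were in 0 of the 9. The full glucocorticoid palindrome with a spacer of 3 bases was in 3 windows of the table and in 0 of the 9. The 5 motifs searched as single runs of letters do not contain one another, while the palindrome contains the core letters.

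All 10 genes reached 1 TPM in each library, which 19.7% of all genes did and 45.4% of the nuclear protein-coding ones. TPM, the unit of the deposited levels, corrects for transcript length and library depth and so allows comparison between genes. By mean RSEM TPM the order was Ddit4l, Foxo4, Ddit4, Deptor, Sesn1, Mtor, Foxo3, Foxo1, Sesn3 and Sesn2. Neighbours in that order overlapped in their ranges over the 2 libraries, except Ddit4l above Foxo4, Sesn1 above Mtor, and Sesn3 above Sesn2. Of the 45 pairs of genes, 31 did not overlap. The place of Ddit4 rests on the library: it was rank 9 in replicate 1 and rank 2 in replicate 2, while Ddit4l was first and Sesn2 last in both. In replicate 2 the lead of Ddit4l was narrow by RSEM, at 89.62 TPM against 88.63 TPM for Ddit4, with overlapping credible bounds. Kallisto gave 129 and 86.7 TPM there.

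**Figure D1:**
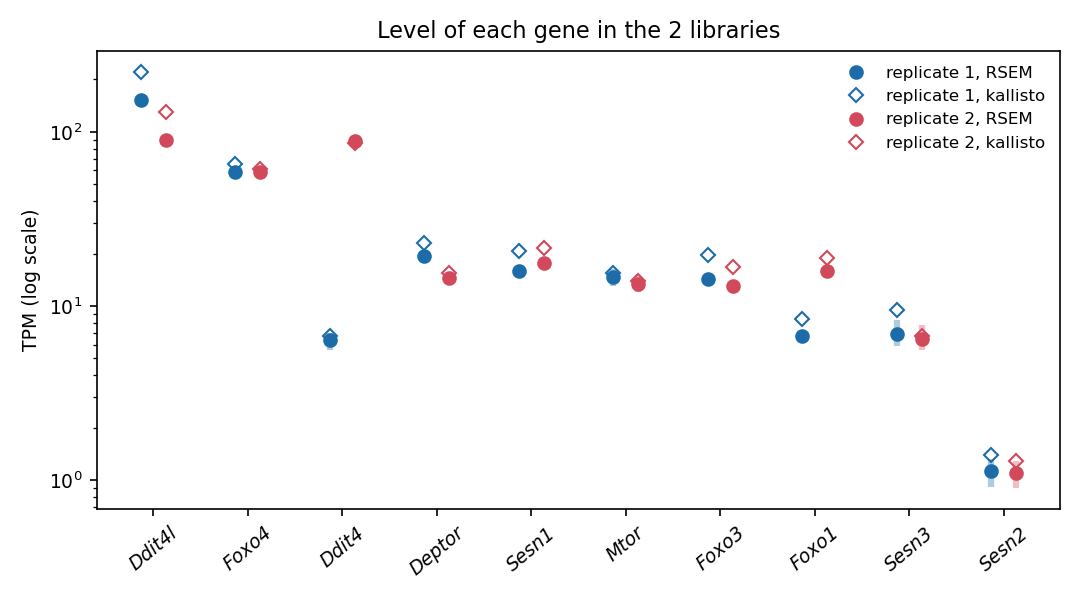
RSEM TPM (filled circles, with the bounds of RSEM's credible interval as pale bars) and kallisto TPM (open diamonds) of each gene in replicate 1 (blue) and replicate 2 (red), on a log axis, in order of mean RSEM TPM. The 2 libraries are within 1.5-fold for 7 of the genes, while Ddit4l goes from 152.34 to 89.62 TPM, Ddit4 from 6.40 to 88.63 TPM and Foxo1 from 6.68 to 15.79 TPM.

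Of the 10 genes, 2 differed by at least 2-fold between the libraries, both higher in replicate 2, and 0 were at least 2-fold lower. Among the 12969 genes tested, those whose counts summed to at least 50, 4.64% differed by at least 2-fold, 2.70% higher and 1.94% lower. All 10 genes passed that count minimum. The log2 ratio of replicate 2 over replicate 1, after TMM scaling, had a median of 0.12 over the 10 genes and -0.00 over all genes tested, and 7 of the 10 were above 0. With scaling by spike-in totals that direction turned: the median was -0.10 and 6 of the 10 were below 0. Of the 10, 7 were within 1.5-fold of equality, as were 86.3% of all genes tested. Folds below compare TMM-scaled counts, so they differ somewhat from the ratios of the TPM printed beside them. They carry 95% intervals that cover counting error only.

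**Figure D2:**
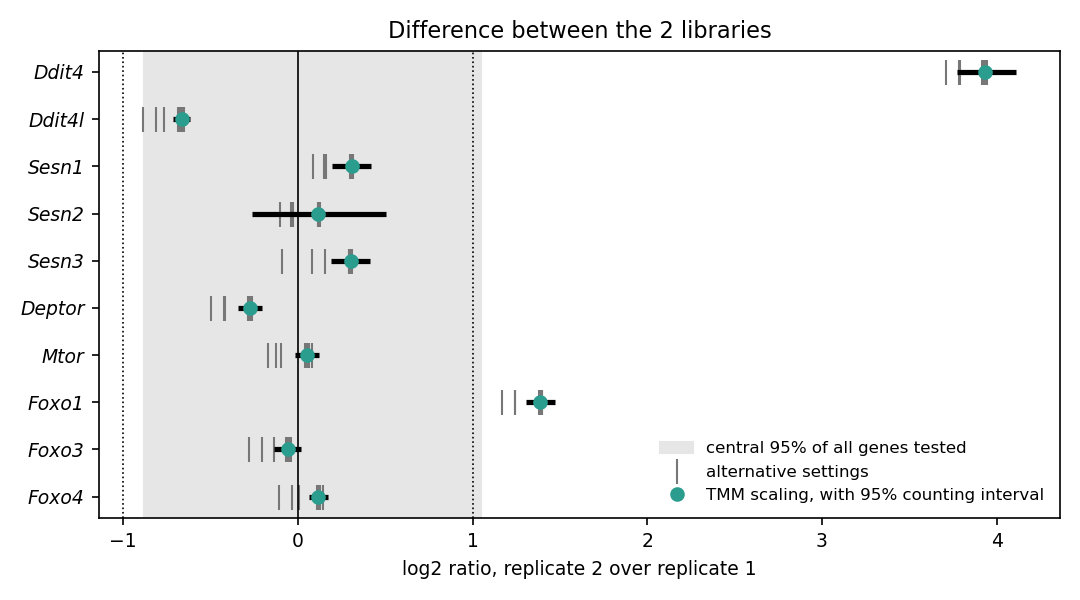
log2 ratio of replicate 2 over replicate 1 for each gene (green points, TMM scaling, black bars for the 95% counting interval), the same ratio under the alternative settings (grey ticks) and the central 95% of all genes tested (grey band, -0.88 to 1.05). Dotted lines mark 2-fold. Ddit4 (3.93) and Foxo1 (1.39) lie beyond the band under every setting, and the other 8 genes lie within it under TMM scaling.

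Ddit4 (ENSMUSG00000020108.4, chromosome 10, 59949669 to 59951834, minus strand, mm10) encodes the stress-induced brake on mTORC1. It had 307 expected counts and 6.40 TPM in replicate 1, and 4811 counts and 88.63 TPM in replicate 2. The libraries did not overlap: the credible bounds that RSEM wrote ran from 5.56 to 6.96 TPM in the first and from 84.4 to 89.3 TPM in the second. By TMM-scaled counts Ddit4 was 15.4-fold higher in replicate 2 (95% interval 13.7 to 17.3). The mean was 47.5 ± 58.1 TPM (SD, n = 2), so the SD exceeded the mean. Kallisto gave 6.75 and 86.7 TPM, from 243 and 3778 estimated counts. These TPM were 1.06 and 0.98 times the RSEM values, below the medians of 1.37 and 1.29 over genes at or above 1 TPM. Of the 12969 genes tested, 19 (0.147%) had a larger absolute log2 ratio. Among the 6641 protein-coding genes whose mean reached 5 TPM, Ddit4 had the highest ratio of all.

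Genes of slow fibres differed in the same direction. The slow fibre list had 10 of its 10 genes at least 2-fold higher in replicate 2, and its summed level was 457 TPM in replicate 1 and 2443 TPM in replicate 2, with a median log2 ratio of 2.52. The fast fibre list summed to 96964 and 89770 TPM, with 1 of 11 genes, Myh1, at least 2-fold higher. Among the 5 protein-coding genes nearest to Ddit4 in log2 ratio were Tnnt1 (2.86), Zfp385a (2.85), Tnnc1 (2.75) and Myh7 (2.69). None of the 5 was close, since each lay at least 1.07 below Ddit4, and likeness over 2 libraries is a single number. Tnnt1, Tnnc1 and Myh7 encode the troponin T, troponin C and myosin heavy chain of slow fibres. The part of fibre make-up in the difference of Ddit4 was not tested, and in bulk muscle fewer cells of a type and less RNA per cell cannot be told apart.

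Ddit4l (ENSMUSG00000046818.7, chromosome 3, 137621612 to 137628333, plus strand), the relative of Ddit4 that is enriched in muscle, went the other way. It had 9465 counts and 152.34 TPM in replicate 1, and 6092 counts and 89.62 TPM in replicate 2. By TMM-scaled counts Ddit4l was 1.59-fold lower in replicate 2 (1.54 to 1.64), short of 2-fold. Its mean was 121 ± 44.3 TPM. A larger absolute ratio was found in 10.6% of all genes tested. Its ratio was below 0 under all 9 alternative settings, from -0.89 to -0.65. Kallisto gave 222 and 129 TPM, or 1.46 and 1.44 times the RSEM values, where the median over genes at or above 1 TPM was 1.37 and 1.29. Its leading transcript alone, Ddit4l-201, stood at 120.37 and 68.02 TPM by RSEM.

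The sum of Ddit4 and Ddit4l was 159 TPM in replicate 1 and 178 TPM in replicate 2 by RSEM, and 229 and 216 TPM by kallisto, so the direction of the sum depends on the tool. By both tools the total differed far less than its make-up. Ddit4 made up 4.03% of that sum in replicate 1 and 49.7% in replicate 2. By kallisto its share was 2.95% and 40.1%. Against the transcript of their common target kinase, Ddit4 stood at 0.437 times the TPM of Mtor in replicate 1 and 6.60 times in replicate 2. The Ddit4l level was 10.4 and 6.68 times that of Mtor, so in replicate 1 one of the pair exceeded Mtor and in replicate 2 both did.

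**Figure D3:**
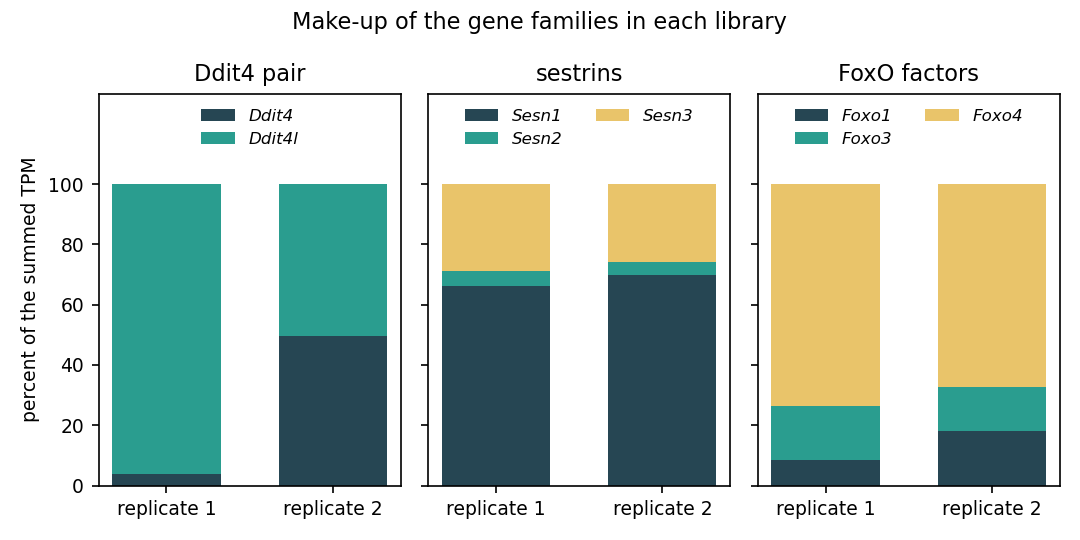
Share of each gene in the summed RSEM TPM of its family, in percent, for the Ddit4 pair, the sestrins and the FoxO factors, with a stacked bar for each library. Ddit4 takes 4.03% of its pair in replicate 1 and 49.7% in replicate 2, Foxo1 takes 8.37% and 18.0% of the FoxO sum, and the sestrin shares differ by under 4 percentage points.

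The sestrins differed little. Sesn1 (ENSMUSG00000038332.13, chromosome 10, 41809935 to 41908424, plus strand), a sestrin known as a target of p53 and FoxO, had 1199 and 1515 counts, or 15.85 TPM in replicate 1 and 17.57 TPM in replicate 2. It was 1.24-fold higher in replicate 2 (1.15 to 1.34), with a mean of 16.7 ± 1.22 TPM. Under spike-in scaling the log2 ratio of Sesn1 was 0.09, against 0.31 with TMM, which lies below that counting interval. Sesn3 (ENSMUSG00000032009.8, chromosome 9, 14275067 to 14333101, plus strand), a known FoxO target, had 1164 and 1465 counts, or 6.91 and 6.49 TPM. Its counts gave a 1.23-fold higher value in replicate 2 (1.14 to 1.33), while its TPM ratio gave a log2 value of -0.09, so its direction depends on the measure.

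Sesn2 (ENSMUSG00000028893.8, chromosome 4, 132492032 to 132510501, minus strand), the sestrin that binds leucine and is induced by ATF4, was the lowest of the 10 genes. It had 110 counts and 1.13 TPM in replicate 1, and 122 counts and 1.10 TPM in replicate 2. The libraries overlapped in their credible bounds, and the fold of 1.09 (0.833 to 1.42) covered equality. The direction turned under scaling by spike-ins or by library totals, and as a ratio of TPM. At this depth a difference within that interval was not detectable. The 3 sestrins summed to 23.9 and 25.2 TPM. Sesn1 made up 66.3% and 69.8% of the sum, Sesn3 28.9% and 25.8%, and Sesn2 4.73% and 4.37%, and kallisto gave the same order.

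Mtor (ENSMUSG00000028991.15, chromosome 4, 148448611 to 148557683, plus strand), the kinase itself, had 3104 counts and 14.63 TPM in replicate 1, and 3285 counts and 13.42 TPM in replicate 2. The fold of 1.04 (0.987 to 1.09) covered equality. Its direction turned under scaling by spike-ins or by library totals, and as a ratio of TPM. Within its span, on the other strand, lies Angptl7, at 12.27 and 4.06 TPM. The libraries are labelled as stranded, but the strand setting of the counting is not given in the sources used here, so reads of that overlap could not be checked.

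Deptor (ENSMUSG00000022419.16, chromosome 15, 55112317 to 55259271, plus strand), the inhibitor that binds mTOR, was lower in replicate 2. It had 3860 counts and 19.29 TPM in replicate 1, and 3255 counts and 14.43 TPM in replicate 2. The libraries did not overlap in their credible bounds (17.8 to 20.4 and 13.3 to 15.4 TPM). The difference was 1.21-fold (1.16 to 1.27), which is smaller than that of 36.9% of all genes tested. Under spike-in scaling the log2 ratio of Deptor was -0.50, against -0.28 with TMM, so the counting interval does not cover the choice of scaling. The TPM of Deptor was 1.32 times that of Mtor in replicate 1 and 1.08 times in replicate 2, so inhibitor and kinase transcripts were of like abundance in both.

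Among the FoxO factors Foxo1 stood apart. Foxo1 (ENSMUSG00000044167.6, chromosome 3, 52268336 to 52353221, plus strand), known for driving genes of fasting and atrophy in muscle, had 1657 counts and 6.68 TPM in replicate 1, and 4433 counts and 15.79 TPM in replicate 2. The libraries did not overlap, with credible bounds of 6.23 to 6.85 TPM and 15.0 to 15.9 TPM. It was 2.62-fold higher in replicate 2 (2.48 to 2.77), and kallisto gave 8.42 and 18.7 TPM. A larger absolute ratio was found in 284 genes (2.19%), and its ratio ranked 62 from the top among the 6641 protein-coding genes. Gm38034, a gene of the TEC class in GENCODE on the same strand within its span, was at 2.23 and 3.27 TPM.

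The genes nearest to Foxo1 in log2 ratio were Nnt (1.39), Fxyd6 (1.38) and Fabp3 (1.38), over the same 2 libraries. Fabp3, the fatty acid carrier of oxidative muscle and heart, was at 114 and 269 TPM. The slow fibre values given above moved with Foxo1 too, and their part in its difference was not tested.

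Foxo3 (ENSMUSG00000048756.11, chromosome 10, 42181841 to 42276755, minus strand), the factor best known for activating the atrophy ligases and autophagy in muscle, did not share the difference. It had 2712 counts and 14.35 TPM in replicate 1, and 2661 counts and 13.04 TPM in replicate 2. The fold of 0.961 (0.911 to 1.01) covered equality. The TPM of Foxo1 was 0.466 times that of Foxo3 in replicate 1 and 1.21 times in replicate 2, so the order of the pair turned between the libraries, by kallisto as well (0.431 and 1.11).

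Foxo4 (ENSMUSG00000042903.8, chromosome X, 101254528 to 101260873, plus strand), the most abundant of these FoxO transcripts, was at 58.78 TPM in replicate 1 and 59.08 TPM in replicate 2, from 4991 and 5523 counts. Its mean of 58.9 ± 0.212 TPM had the smallest SD relative to the mean among the 10 genes. The fold was 1.08 (1.04 to 1.13), and its sign turned under scaling by spike-ins or by library totals. The 3 FoxO genes summed to 79.8 and 87.9 TPM, of which Foxo4 took 73.6% and 67.2%, Foxo3 18.0% and 14.8%, and Foxo1 8.37% and 18.0%.

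The 10 genes have 32 annotated transcripts, 22 of them protein coding, and 3 genes (Ddit4, Sesn2 and Foxo1) have 1 each. The transcript with the largest share was protein coding in all 10 genes and the same by RSEM and kallisto. It took at least 90% of the gene's TPM in both libraries in 4 genes, the 3 above and Foxo4. Sesn1-201, from the downstream start shown above, took 90.8% of Sesn1 TPM in replicate 1 and 89.4% in replicate 2. Sesn1-202, which starts upstream at 41809935, took 9.22% and 10.6%, and by kallisto 15.8% and 17.0%. Both tools therefore placed most Sesn1 RNA on the downstream start in both libraries.

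Transcripts with few reads weighed on the TPM of several genes. Ddit4l-202 took 20.98% and 23.7% of Ddit4l TPM but 3.39% and 3.97% of its expected counts. Deptor-203 took 20.1% and 21.9% of Deptor TPM but 3.71% and 4.06% of its counts, and kallisto gave it 1.42% and 0%. Counts and TPM thus differ on how much these transcripts matter, while the leading transcript held over 95% of the counts of Ddit4l and Deptor in both libraries. Sesn3-204 took 59.5% and 73.3% of Sesn3 TPM against 92.4% and 96.0% of its counts, and the count ratio and TPM ratio of the gene had opposite signs. Mtor-202 took 85.2% and 87.1% of Mtor TPM by RSEM and 99.0% and 98.7% by kallisto. The rest included Mtor-204, a retained-intron transcript, at 7.04% and 7.08% by RSEM and 0 by kallisto.

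**Figure D4:**
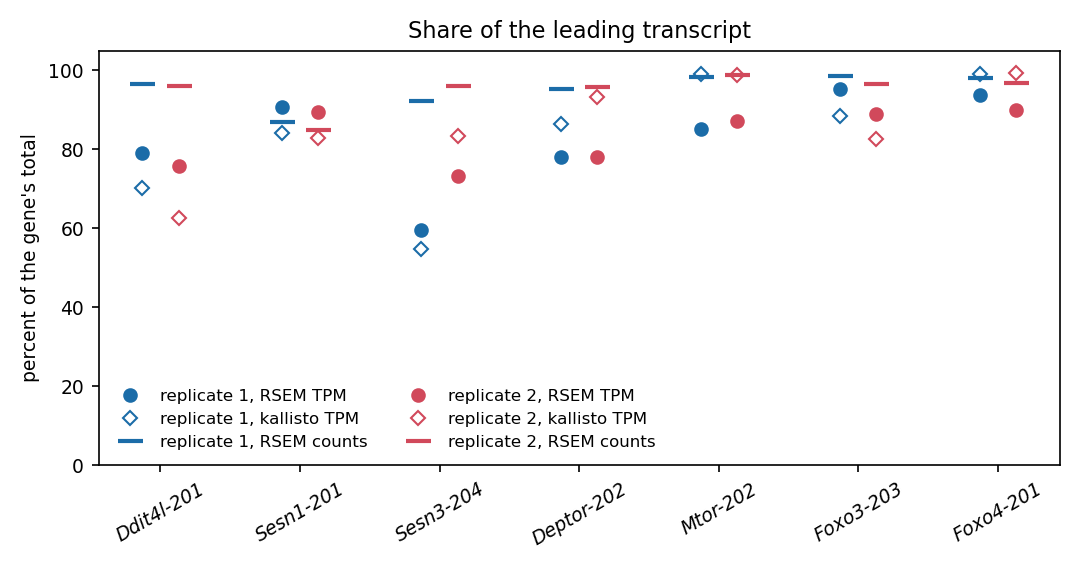
Share of the leading transcript in its gene, in percent, for the 7 genes with several annotated transcripts: RSEM TPM (filled circles), kallisto TPM (open diamonds) and RSEM expected counts (dashes), replicate 1 in blue and replicate 2 in red. The shares by counts are all above 84%, while those by TPM go down to 54.7% for Sesn3-204.

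The pathway genes around these 10 were taken as 10 lists of 160 distinct genes, chosen with earlier results known. Of the 152 tested, 13 were at least 2-fold higher in replicate 2 and 3 at least 2-fold lower, or 10.5% against the 4.64% of all genes.

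None of the 50 tested genes of the mTOR pathway lists differed by 2-fold, a share near the 4.64% of all genes. Of the 9 mTOR complex partners tested (median log2 ratio 0.06), Akt1s1, the mTORC1 subunit PRAS40, led with 65.95 and 63.04 TPM, ahead of Mapkap1 (28.46 and 28.80 TPM) and Rptor (10.31 and 10.19 TPM). Rictor, the scaffold of mTORC2, was at 7.6 and 4.38 TPM, a log2 ratio of -0.65, and the mTORC2 subunit gene Prr5 was at 0.68 and 1.07 TPM. The TSC complex, through which DDIT4 acts, had Tsc2 at 39.9 and 45.9 TPM and Tsc1 at 18.2 and 17.8 TPM, with its subunit gene Tbc1d7 at 11.25 and 11.54 TPM. Rheb, the GTPase that TSC restrains, was at 33.8 and 27.2 TPM. The median of these 4 was 0.13.

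The 26 genes of the GATOR, Rag and Ragulator group, through which sestrins act, had a median of -0.01. Rragd was the highest, at 86.1 and 82.8 TPM, followed by Lamtor1 (41.4 and 47.4 TPM) and Lamtor2 (41.1 and 42.0 TPM). Castor1, an arginine sensor, had the largest ratio of the group, 0.56 from 40 and 61 counts. Of the 11 mTORC1 substrates (median -0.04), the lipid phosphatase gene Lpin1 was at 159 and 107 TPM, Eif4ebp2, a repressor of translation, at 75.8 and 64.6 TPM, and Maf1, a repressor of RNA polymerase III, at 51.4 and 44.7 TPM. Grb10, an adaptor that damps insulin signalling, was at 13.7 and 16.2 TPM.

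Of the 23 FoxO regulators tested, 0 were past 2-fold, a share near the 4.64% of all genes, and the median was -0.07. Ywhae and Ywhag, whose proteins bind phosphorylated FoxO, were at 278 and 226 TPM and at 159 and 126 TPM. The kinase gene Sgk1 was at 126 and 84.3 TPM, and the deacetylase gene Sirt3 had the largest ratio of the list, 0.59. Of the 24 FoxO targets in muscle, 2 were at least 2-fold higher and 0 lower, with a median of -0.07. Pdk4, the kinase that restrains glucose oxidation, was at 171.72 TPM in replicate 1 and 574.56 TPM in replicate 2. By TMM-scaled counts it was 3.55-fold higher in replicate 2 (3.48 to 3.62). Klf15, a regulator of amino acid and fat use, was at 17.55 and 31.96 TPM, a ratio short of 2-fold. Its TMM-scaled counts were 2.01-fold higher (1.87 to 2.15), a call at the edge of the threshold. The atrophy ligase gene Trim63 was at 201 and 202 TPM, and Txnip, a brake on glucose uptake, at 237 and 151 TPM. Fbxo32, the other well-known atrophy ligase gene of the list, was at 183 and 97.7 TPM. By TMM-scaled counts it was 1.69-fold lower in replicate 2.

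The other 4 lists hold known targets of the factors that act on Ddit4 or the sestrins. The glucocorticoid targets had 8 of 23 at least 2-fold higher, against 2.70% of all genes tested, and 0 lower. Of the 23, 18 were above 0, and the median was 0.50 (0.28 under spike-in scaling). The 8 past 2-fold were Klf15, Nfkbia, Mt1, Mt2, Cebpd, Sult1a1, Angptl4 and Pdk4. The 5 below 0 were Mstn (log2 ratio -0.96), Fkbp5 (-0.82), Fbxo32 (-0.75), Pik3r1 (-0.41) and Sgk1 (-0.36), so the list did not move as one. Angptl4, an inhibitor of lipoprotein lipase, had the largest ratio, 2.23 from 23 and 118 counts, and the most abundant genes were Pdk4, Glul (209 and 269 TPM) and Trim63. Klf15 and Pdk4 are also on the FoxO list, so these counts overlap.

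The p53 targets went both ways, with 3 of 14 at least 2-fold higher, 2 lower and a median of -0.10. Those higher were Trp53inp1, Btg2 and Fas (30 and 98 counts), and those lower were Plk2 and Eda2r, a receptor of the TNF family, at 27.33 and 4.74 TPM. The most abundant were Ccng1 (305 and 293 TPM), Phlda3 (77.8 and 66.8 TPM) and the cell cycle inhibitor gene Cdkn1a (50.5 and 27.7 TPM). Of 13 ATF4 targets, 1 was at least 2-fold higher, the stress factor gene Atf3, with a median of 0.09. Atf4 itself was at 83.9 and 61.6 TPM, Cebpb at 56.0 and 74.1 TPM, and Vldlr at 38.4 and 43.5 TPM. Of 15 HIF targets (median -0.06), Egln3, an oxygen sensor, was higher at 9.38 and 19.24 TPM, and Pfkfb3, an activator of glycolysis, was lower at 175 and 61.3 TPM. Bnip3 (118 and 93.5 TPM) and Bnip3l (78.5 and 70.0 TPM), genes of mitophagy, stayed within 2-fold. Under spike-in scaling, Klf15 (log2 ratio 0.78), Sult1a1 (0.78), Btg2 (0.96) and Egln3 (0.96) were no longer past 2-fold. Under the same scaling 5 genes came to be at least 2-fold lower: the FoxO targets Gadd45a (-1.10) and Bcl2l11 (-1.10), the p53 target Bbc3 (-1.09), and the glucocorticoid targets Fkbp5 (-1.04) and Mstn (-1.18).

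**Figure D5:**
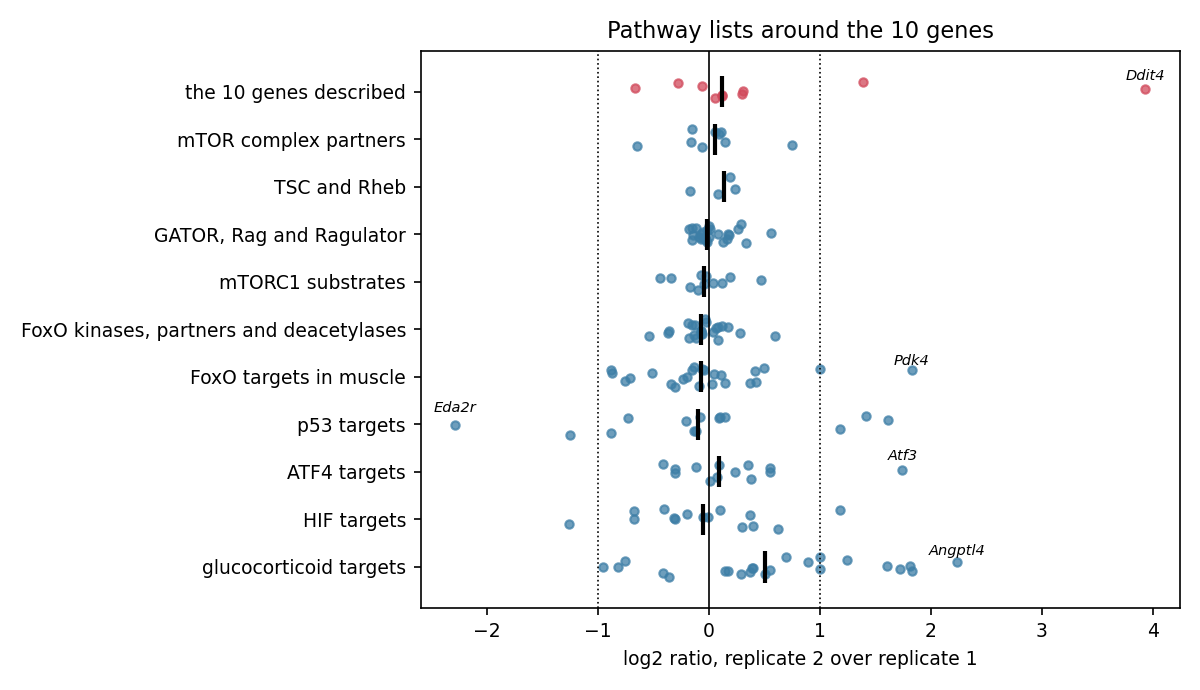
log2 ratio of replicate 2 over replicate 1 of each tested gene (points) in the 10 genes described (red) and in the 10 pathway lists (blue), with the list median as a black bar, dotted lines at 2-fold and the farthest gene named where its ratio is beyond 1.7. Vertical scatter within a row has no meaning. The glucocorticoid list has the highest median of the pathway lists, 0.50, and Ddit4 lies farther out than any pathway gene.

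The tissue carried the markers of its label, with 8 of 8 skeletal muscle genes at 1 TPM or more in each library, Acta1 leading at 21825 and 23051 TPM. Of these 8, 1 was at least 2-fold higher in replicate 2: Mb, at 873 and 2283 TPM (2.89-fold). Of the lists for other cells, the fibro-adipogenic sum was 428 and 438 TPM, with Col1a1 and Col3a1, genes of fibrillar collagens, at least 2-fold higher in replicate 2 (3.25-fold and 3.66-fold). Adipocyte markers summed to 69.2 and 77.4 TPM, endothelial markers to 59.5 and 43.9 TPM, mural markers to 155 and 161 TPM, and tendon markers to 80.7 and 50.8 TPM. Macrophage markers summed to 30.1 and 24.1 TPM, satellite cell markers to 24.7 and 10.2 TPM, Schwann cell markers to 48.6 and 40.1 TPM, erythrocyte markers to 415 and 407 TPM, B and plasma cell markers to 28.4 and 62.9 TPM, and mast cell markers to 4.10 and 6.18 TPM. T and NK cell and neutrophil markers summed to under 1 TPM, with no count in either library for Cd3e, Cd3g, Cd8a, Nkg7, Ly6g, Camp and Ngp. Ighm was at least 2-fold higher in replicate 2, and Cd68, Myod1 and Igkc were at least 2-fold lower. Myod1, at 19.91 and 6.51 TPM, made up most of the satellite cell sum in both libraries. Of the 5 genes of that list tested, 4 had log2 ratios below 0 and 1, Chodl, above 0. None of the sums for other cells differed as much as that of the slow fibre list. Their part in the differences of Ddit4 and Foxo1 was not tested.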

How the data were processed

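Total RNA-seq of 2 gastrocnemius libraries was used. The library notes name mm10 and GENCODE M21; aligner, tool versions and strand setting: not given in the sources used here. Expected counts and TPM per gene and transcript were deposited by the authors under RSEM's column names, per the file headers, beside posterior mean TPM and credible bounds, whose level the headers do not give. Estimated counts and TPM per transcript, deposited under kallisto's column names, per the file headers, were summed per gene.

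Expected counts were rounded. In R 4.3.3, edgeR 4.0.16 computed TMM factors and log2 CPM with a prior count of 2 for the 12969 genes whose counts summed to at least 50; spike-in and tRNA rows stayed out. Size factors of DESeq2 1.42.0 were an alternative. The 95% intervals of folds are exact (conditional binomial) and cover counting error alone: without molecular identifiers, reads are not independent molecules. The steps were tested on simulated data. Other steps used Python 3.11.15, pandas 2.3.3 and scipy 1.17.1.

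The members and lists were chosen with earlier results of these data known. Genes named were all 10 members, from each pathway list the 3 of highest mean TPM and the 2 of largest absolute log2 ratio, and the genes nearest in log2 ratio (5 for Ddit4, 3 for other members past 2-fold, of at least 5 TPM). Other genes past 2-fold, Fbxo32, the glucocorticoid targets below 0, cell markers past 2-fold or at 0 and genes overlapping a member were named after their values were seen. Of the genes this rule takes, 2 are not reported here. A symbol held by several genes took the one of highest mean TPM. The scaling, the count minimum, the prior count, the quantifier and the TPM floor were varied, and each library was left out in turn. With 1 group no test between conditions was possible.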

Additional observations from a re-analysis of the deposited data

How the results depend on the processing

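The count of 2 members at least 2-fold apart, Ddit4 and Foxo1, held under all 9 alternatives for ratios, with log2 ratios of 3.71 to 3.94 and 1.17 to 1.40. Ddit4l, Sesn1, Deptor and Foxo3 kept their sign in all 9. The median log2 ratio of the 10 genes was -0.10 with spike-in totals, -0.030 with library totals without TMM and -0.065 as a log2 ratio of TPM, against 0.12 with TMM. Spike-in totals shifted the median of all genes by -0.22 and library totals by -0.15, and signs of Sesn2, Mtor and Foxo4 turned with both. As a log2 ratio of TPM the signs of Sesn2, Sesn3 and Mtor turned. Genes at least 2-fold apart numbered 1340 of 16494 tested with a summed count of at least 10 (662 higher, 678 lower). They numbered 194 of 7870 with at least 500 (147 and 47), against 602 of 12969 in the main setting. Fewer low-count genes are tested with the higher minimum, so the share of 4.64% depends on the minimum. All members but Sesn2 passed the higher minimum. Of the genes at least 2-fold apart, the share that were higher was 58.1% with TMM, 35.7% with spike-in totals, 43.8% with library totals and 40.6% by TPM. Pathway genes past 2-fold numbered 11 to 18. The number of members at or above 1 TPM was 10 without either replicate, the number of pairs kept in order 38 to 40 of 45, and members whose leading transcript took at least 90% 4 to 6. Leaving out a library gives no value for a ratio, which needs both. No paired analysis was possible because the series has 1 group.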
